A study of Homo sapiens with 14 samples.

Results

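The genes described here are 7 enzymes of heme synthesis (ALAS1, ALAD, UROS, UROD, CPOX, PPOX and FECH) and TMEM14C, a mitochondrial inner membrane protein needed for the transport of porphyrin intermediates, 8 genes in all. They were taken by gene symbol from a table of 114349 splice events in 12516 genes. The table lists 115 events of the 8 genes. Of these, 89 had a mean of at least 10 junction reads over both groups. A further 8 of the 89 had the same level in every library, and the remaining 81 were tested.

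RNA-Seq had been performed in HEK293T, a human embryonic kidney line that is not erythroid. The 3 SF3B1-WT libraries carry SF3B1-K700K and the 3 SF3B1-MT libraries carry SF3B1-K700E, expressed at the endogenous locus of an isogenic line. The table holds splice events, so the K700E allele itself was not checked. Nothing in the sources used here says that libraries of a genotype came from separate clones, so the p-values measure the spread between these libraries, which may be technical. The table lists 6 MT values per event although the labels name 3 MT samples. The 3 values that have columns of their own were used, as MT 1, MT 2 and MT 3 in the order of those columns, and whether these are the labelled samples is open. DRIP-seq, which maps DNA:RNA hybrids with the S9.6 antibody, was available for Nalm-6, a human leukemic B cell line, with 2 libraries each of untreated WT, RNH1-treated WT, untreated MT and RNH1-treated MT DNA. RNH1 (RNase H) degrades the RNA of the hybrids.

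Heme is made in a chain of enzymes that begins and ends in the mitochondrion. ALAS1 joins glycine and succinyl-CoA in the first step, ALAD, UROS, UROD and CPOX build and modify the porphyrin ring, PPOX oxidizes protoporphyrinogen to protoporphyrin, and FECH inserts the iron. SF3B1 is a U2 snRNP protein that takes part in choosing the branch point and so the 3′ splice site. Mutation of SF3B1 is known in myelodysplastic syndromes with ring sideroblasts, red cell precursors in which iron collects in mitochondria, and K700E is known for use of cryptic 3′ splice sites shortly upstream of the usual ones. HEK293T cells make heme through ALAS1, and the erythroid isoenzyme ALAS2 had no event in the table.

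The TMEM14C splice sites are shown here because the forms of its second exon, described below, differ by the bases between them. The sequence is given 5′ to 3′ from the plus strand of the GRCh38 (hg38) genome at chr6:10724543-10724572, with sites 14 nt apart. Capitals mark the AG that ends the intron at the upstream and at the downstream 3′ splice site.
TMEM14C: acctctgatccAGcttgttttctgcAGgtg

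In PPOX a pair of 3′ splice sites lies 32 nt apart, and in UROD another pair lies 19 nt apart. In the GENCODE annotation the upstream PPOX site is used by 1 of 27 transcripts, which is marked for nonsense-mediated decay, and the downstream site by 6, of which 4 are protein coding. The 32 nt between the PPOX sites lie directly before a coding exon and leave a remainder of 2 when divided by 3. The upstream UROD site is used by 5 of 27 transcripts, none marked protein coding, and the downstream site by 16, of which 10 are protein coding. In TMEM14C the 14 nt at chr6:10724556-10724569 lie in the 5′ untranslated region, and each site is used by 1 of 5 transcripts.

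Across the 8 genes no event passed the test. Inclusion levels, the fraction of the inclusion form between 0 and 1 after correction for the length of both forms, were compared with limma, and an event was called at a Benjamini-Hochberg adjusted p under 0.05 and a difference above 0.1. Of the 81 events of the 8 genes 0 were called, against 26 of 83581 events in all, which is 0.0311%. At an unadjusted p under 0.05 there were 7 of the 81 events (8.64%), of which 5 were PPOX events, against 3738 of 83581 events overall (4.47%). The median size of the difference was 0.016 in the 8 genes and 0.014 over all tested events. A difference above 0.1 was seen in 14 of 81 events (17.3%), against 4847 of 83581 (5.8%) overall. PPOX held 12 of these 14 events, and its events had a median of 18.3 reads, against 82.4 over all events. Levels of WT and MT libraries did not overlap, at any size of difference, in 7 of the 81 events, against 4564 of 83581 overall. They did not overlap and differed by more than 0.1 in 3 of the 81 events (3.70%), against 1.73% of all tested events. All 3 were PPOX events and used 1 splice site, so they share reads and are not separate observations.

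**Figure D1:**
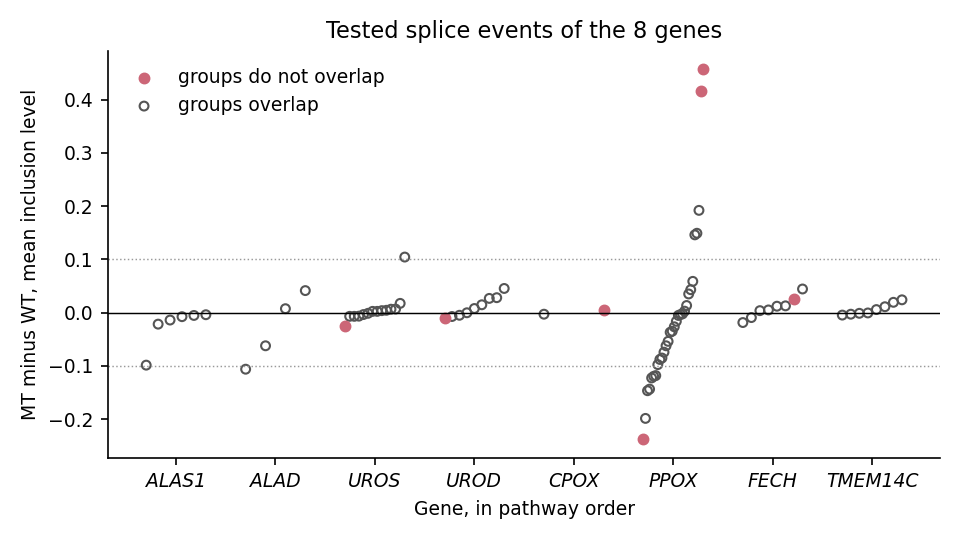
Difference in mean inclusion level, MT minus WT, for each of the 81 tested events (points) of the 8 genes in the order of the pathway, with TMEM14C last. Filled points are events whose 3 WT and 3 MT levels do not overlap, 7 of the 81, against 4564 of 83581 tested events overall. Dotted lines mark differences of 0.1, and PPOX holds the widest range, from -0.238 to 0.457.

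PPOX (ENSG00000143224.18) is encoded on the plus strand at chr1:161166056-161178013. The event with the smallest p compared retention of the intron after position 161167234 with splicing to the upstream site. Its retained level was 1.00, 0.957 and 1.00 in WT libraries and 0.737, 0.787 and 0.719 in MT. All 3 MT libraries were below all 3 WT libraries, with means of 0.986 ± 0.025 and 0.748 ± 0.035 (SD, n = 3 each). The authors' mean over all 6 listed MT values was 0.734. The difference was -0.238 and its limma adjusted p was 0.104, which misses the threshold. A companion event measured retention of the same intron against splicing to the downstream site. Its level was 0.492, 0.735 and 0.662 in WT libraries and 0.61, 0.724 and 0.731 in MT, which overlap, with a limma adjusted p of 0.856.

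The remaining PPOX events with levels that did not overlap set the exon that begins at the upstream site against a later exon, as mutually exclusive exons. In the first, inclusion of the upstream-site exon was 0, 0.067 and 0 in WT libraries and 0.625, 0.313 and 0.5 in MT (limma adjusted p = 0.341, a depth of 12 mean reads). In the second it was 0, 0.063 and 0 in WT libraries and 0.455, 0.385 and 0.474 in MT (limma adjusted p = 0.466, 10.3 mean reads). The differences in mean level were 0.457 and 0.417, with every MT library above every WT library, and neither event was called.

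The table also scores both PPOX sites as an alternative 3′ splice site event. The level of the longer exon was 0.13, 0.478 and 0.322 in WT libraries and 0.428, 0.507 and 0.571 in MT. The groups overlap, since WT 2 lies above MT 1, and the limma adjusted p was 0.856 at 18.5 mean reads. Reads that cross into the 32 nt count towards the longer exon whether or not the intron before it was removed. The level of this event therefore does not separate use of the upstream site from retention of the intron. The same limit holds for the other alternative 3′ splice site events described here.

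The authors' mean junction reads show both sites without the intron. Reads joining the preceding exon to the upstream site had an authors' mean of 0.33 in WT and 5.83 in MT, and reads joining it to the downstream site a mean of 11.7 in WT and 6.83 in MT. The MT means cover all 6 listed values, carry no SD, and were not tested. By these means the upstream site had close to no reads in WT and nearly as many as the downstream site in MT.

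**Figure D2:**
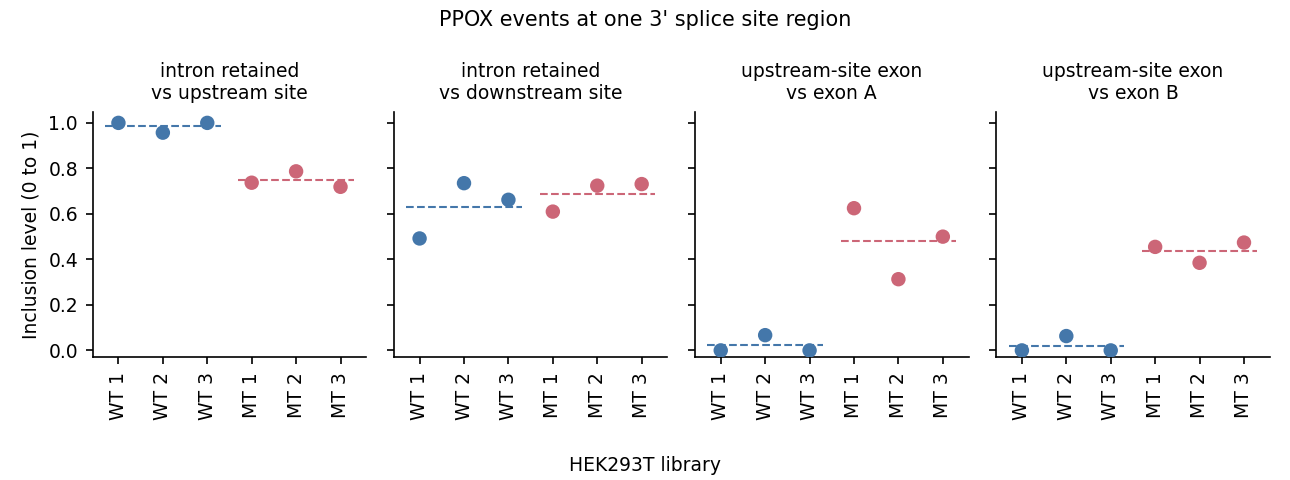
Inclusion level (0 to 1) in each HEK293T library for 4 PPOX events, with points in blue for WT and red for MT and dashed lines at the group means; exon A begins at position 161168432 and exon B at position 161167995 of chromosome 1. Retention against the upstream site is lower, and inclusion of the upstream-site exon higher, in every MT than in every WT library, whereas retention against the downstream site overlaps.

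The mutually exclusive exon events rest on few reads, and the 3 events whose groups do not overlap share the reads of the upstream site. When single libraries were left out in turn, the difference in retention against the upstream site stayed between -0.258 and -0.224, with limma adjusted p-values from 0.307 to 0.894. PPOX had 30 tested events in all, of which 10 had a higher and 20 a lower mean in MT. Of its 12 events with a difference above 0.1, 4 use the upstream site, the alternative 3′ splice site event included.

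A second pair of PPOX sites lies 19 nt apart. The level of the longer exon was 0.173, 0.143 and 0.166 in WT libraries and 0.173, 0.193 and 0.1 in MT (limma adjusted p = 0.993). The MT range covers the whole WT range. A PPOX intron further downstream was retained at levels of 0.256, 0.305 and 0.461 in WT libraries and 0.406, 0.457 and 0.597 in MT (limma adjusted p = 0.856). Its groups overlap, and this event was named after its values had been seen.

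TMEM14C (ENSG00000111843.14), on the plus strand at chr6:10722915-10731129, had 8 tested events with 92.2 to 334 mean reads. Differences ran from -0.0047 to 0.024, and 0 events were called. Its second exon is listed in 2 forms, one that begins at the upstream site and one that begins 14 nt later, and each form is scored against skipping of the exon. The upstream form had levels of 0.966, 0.995 and 0.968 in WT libraries and 1.00, 0.996 and 0.991 in MT (limma unadjusted p = 0.032, adjusted p = 0.856). The downstream form had levels of 0.981, 0.996 and 0.975 in WT libraries and 1.00, 0.996 and 0.989 in MT (limma adjusted p = 0.856). Skipping was thus rare against either form in both genotypes, and these levels do not compare the forms with each other. A later exon at chr6:10725907-10726008 was at 1.00 in each WT library and at 0.991, 1.00 and 1.00 in MT libraries.

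The authors' mean inclusion reads, which have no SD, set both forms side by side. The upstream form had an authors' mean of 274.3 inclusion reads in WT and 350.7 in MT, and the downstream form 376.3 in WT and 287 in MT. The downstream form thus had more reads in WT and the upstream form more in MT. The junction to the next exon is counted in both forms, the MT means cover all 6 listed values, and this difference was not tested. The study lists TMEM14C among the transcripts it picked for qPCR because their splicing changed most with SF3B1 mutation. Its main text names no cell line for that choice. That qPCR examined RNH1 overexpression, which the paper reports to have had only a subtle effect on the splicing changes. The study's qPCR primers for the upstream and downstream forms match the same junctions. In them, the part on the first exon is in lower case and the part on the second exon in capitals, which shows the 14 nt that the upstream form holds in addition.
TMEM14C Mut Isoform Fw: tgagaccgCTTGTTTTCTGCAGG
TMEM14C WT Isoform Fw: tcgtgagaccgGTGCAGG

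ALAS1 (ENSG00000023330.15, chr3:52198086-52214327, plus strand) had 6 tested events, all with a lower mean in MT and none called, with differences from -0.099 to -0.004. Its exon at chr3:52204693-52204915 was at 1.00 in each WT library and at 1.00, 1.00 and 0.935 in MT libraries (limma adjusted p = 0.856), so MT 3 alone was lower. The exon with the most reads, at chr3:52205839-52206023 with 197.3 mean reads, was at 1.00 in each WT library and at 1.00, 1.00 and 0.988 in MT libraries. The exon at chr3:52208083-52208247 was at 1.00, 1.00 and 0.982 in WT and within that range, from 0.987 to 0.991, in all MT libraries. At a pair of ALAS1 3′ splice sites 11 nt apart the longer exon was at 0.935, 0.743 and 0.908 in WT libraries and at 0.746, 0.903 and 0.895 in MT, which cover nearly the same range.

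ALAD (ENSG00000148218.16, chr9:113386312-113401290, minus strand) had 4 tested events with 16.2 to 31.2 mean reads. Retention of the intron within chr9:113390593-113390933 was at 0.231, 0.32 and 0.462 in WT libraries and at 0.125, 0.236 and 0.33 in MT (limma adjusted p = 0.856). The groups overlap, and the spread within each group (SD 0.117 and 0.104) is close to the size of the difference, -0.106. An alternative 3′ splice site with sites 166 nt apart was at 0.422, 0.302 and 0.357 in WT libraries and at 0.308, 0.367 and 0.219 in MT, again with overlap. In the annotation its upstream site is used by 1 of 9 transcripts, which is marked as a retained intron. The ALAD exon at chr9:113393447-113393634 was at 0.923, 1.00 and 0.913 in WT libraries and at 1.00, 1.00 and 0.96 in MT.

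UROS (ENSG00000188690.15, chr10:125784980-125823258, minus strand) had 14 tested events. The exon at chr10:125798065-125798145 was included at 0.977, 0.984 and 0.982 in WT libraries and at 0.956, 0.971 and 0.943 in MT. Every MT library was lower than every WT library, by 0.024 in the mean, and the event was not called (limma adjusted p = 0.856). The exon at chr10:125815034-125815130, with the most reads (263.4), was at 0.978, 0.987 and 1.00 in WT libraries and at 0.992, 0.985 and 0.977 in MT. A second event on that exon with other flanking exons was at 1.00 in each WT library and at 0.98, 1.00 and 1.00 in MT libraries, and the exon at chr10:125816177-125816260 was at 1.00 in each WT library and at 1.00, 0.992 and 0.987 in MT libraries. At the UROS sites 165 nt apart the longer exon was at 0.677, 0.676 and 0.588 in WT libraries and at 0.368, 0.917 and 0.667 in MT, where MT 1 and MT 2 lie on either side of all WT libraries.

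UROD (ENSG00000126088.14, chr1:45010950-45015575, plus strand) had 9 tested events with 154.6 to 296.2 mean reads. Its exon at chr1:45013136-45013215 was at 1.00 in each WT library and at 0.993, 0.994 and 0.982 in MT libraries (limma unadjusted p = 0.017, adjusted p = 0.856). The longer exon at the sites 19 nt apart was at 0.084, 0.13 and 0.098 in WT libraries and at 0.087, 0.162 and 0.199 in MT. These levels overlap, and MT 2 and MT 3 lie above all WT libraries. The event was not called (limma adjusted p = 0.856). A UROD 5′ splice site choice at chr1:45013136-45013354 was at 0.937, 0.97 and 0.89 in WT libraries and at 0.953, 0.951 and 0.977 in MT. The exon with the most reads, at chr1:45014940-45015006, was at 1.00, 0.995 and 0.979 in WT libraries and at 1.00, 0.982 and 0.991 in MT.

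CPOX (ENSG00000080819.9, chr3:98579446-98593648, minus strand) had 2 tested events. An exon at chr3:98589662-98589756 was at 0 in each WT library and at 0.008, 0.004 and 0.004 in MT libraries, a difference of 0.0053 that was not called (limma adjusted p = 0.856). The exon with the most reads, at chr3:98581407-98581511, was at 1.00 in each WT library and at 1.00, 0.991 and 1.00 in MT libraries.

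FECH (ENSG00000066926.13, chr18:57544377-57586732, minus strand) had 8 tested events with differences from -0.019 to 0.044. The exon at chr18:57585864-57585973 was at 0 in each WT library and at 0, 0.012 and 0.121 in MT libraries, so the difference rests on MT 3 (limma adjusted p = 0.856). The exons at chr18:57554260-57554424 and chr18:57573246-57573365 lay at or above 0.962 in every library of both genotypes. An alternative 5′ splice site, named after its values had been seen, was at 0.076, 0.089 and 0.077 in WT libraries and at 0.12, 0.094 and 0.104 in MT. The groups do not overlap, and the difference of 0.025 was not called (limma adjusted p = 0.856). The authors' mean over all 6 listed MT values of this event, 0.091, is lower than each of the 3 MT values used. At the FECH 3′ splice sites 63 nt apart the longer exon was at 0.027, 0.03 and 0.012 in WT libraries and at 0.063, 0.031 and 0.011 in MT.

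**Figure D3:**
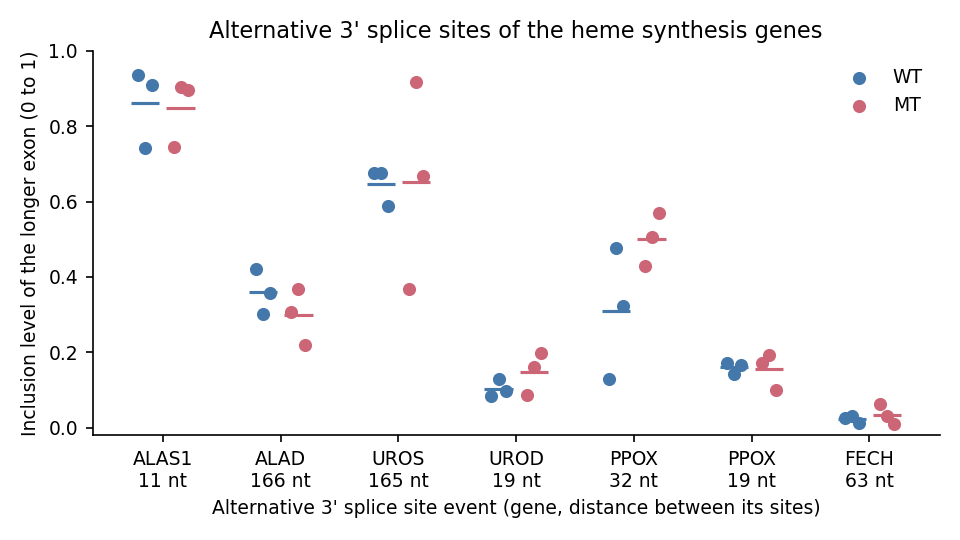
Inclusion level of the longer exon (0 to 1) in each WT (blue) and MT (red) library for the 7 tested alternative 3′ splice site events of the 8 genes, with horizontal lines at the group means and the distance between the sites under each gene. WT and MT levels overlap in all 7 events, and the levels do not separate use of the upstream site from retention of the intron.

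Other genes of heme and iron metabolism were read from a list of 55 gene symbols in the same fit. Some of these are an older and a newer symbol of the same gene, so the list holds fewer genes than symbols. Of the symbols, 9 had no event in the table, which for an unused older or newer symbol says nothing about the gene, and 45 had 389 tested events. In this list 0 events were called by limma, 24 (6.17%) had an unadjusted p under 0.05, against 4.47% of all events, and 8 (2.06%) did not overlap and differed by more than 0.1, against 1.73% of all events. The smallest p belonged to FLVCR1, a heme exporter, where the exon at chr1:212887891-212888001 was at 0.93, 1.00 and 1.00 in WT libraries and at 0.828, 0.75 and 0.68 in MT (limma adjusted p = 0.274). All MT libraries were lower here. The authors' mean over all 6 listed MT values of this event, 0.871, is higher than each of the 3 MT values used.

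Over all tested events the share with an unadjusted limma p under 0.05 was 4.47%, and no group of the list was tested against it. Such a p was seen in 8 of 91 tested events of mitochondrial and 8 of 110 of cytosolic iron-sulfur assembly genes. Transport genes and TMEM14C paralogs had 4 of 74, genes of iron uptake, storage and sensing 3 of 61, genes of regulation, use and breakdown of heme 1 of 33, and the remaining heme synthesis enzymes 0 of 20. In FDXR, the ferredoxin reductase, 2 overlapping forms of the exon ending at position 74866446 of chromosome 17 were at 1.00 in each WT library. The shorter form was at 0.946, 0.91 and 0.898 in MT libraries (limma adjusted p = 0.337) and the longer at 0.972, 0.946 and 0.94 (limma adjusted p = 0.383). Both forms had the same authors' mean of skipping reads, 0 in WT and 4 in MT, so they are not separate observations. In CIAPIN1, an electron carrier of the cytosolic pathway, the longer exon of an alternative 3′ splice site was at 0.969, 1.00 and 1.00 in WT libraries and at 0.788, 0.81 and 0.901 in MT (limma adjusted p = 0.383). In ISCU, the scaffold on which the clusters are built, an exon at chr12:108567190-108567268 was at 1.00, 0.994 and 0.971 in WT libraries and at 0.911, 0.949 and 0.938 in MT (limma adjusted p = 0.425). In each of these genes the 3 MT values used lay below the WT libraries, and no event passed the threshold. For ISCU the authors' mean over all 6 listed MT values, 0.9498, is higher than each of the 3 MT values used.

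In Nalm-6 cells, DRIP peaks were counted over each gene and 3 kb before its start. Untreated peaks were called bona fide where no RNH1-treated peak of the same genotype and number touched them. The paper called its bona fide peaks over the RNH1-treated samples, so its peaks of that name are another measure. Over the 8 genes there were 3 and 1 bona fide peaks in WT, against 8 and 6 in MT. The means were 2.0 ± 1.41 and 7.0 ± 1.41 (SD, n = 2 each), and a two-sided exact permutation test gave p = 0.33, the smallest that 2 against 2 allow. Among peaks with a fold enrichment of at least 4 the counts were 2 and 0 in WT against 5 and 0 in MT, so the groups overlap and MT 2 had none. With all untreated peaks they were 3 and 2 in WT against 12 and 12 in MT. Across the genome the untreated lists also held more peaks in MT, with 254430 and 296808 against 123841 and 131230 in WT. The RNH1-treated lists, which decide which peaks are bona fide, held 202148 and 199155 in MT against 35091 and 77725 in WT. The part of these totals in the counts over the 8 genes was not tested.

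PPOX had 0 and 0 bona fide peaks in WT against 2 and 1 in MT, and ALAD 0 and 0 in WT against 1 and 1 in MT. CPOX had 3 in MT 1 and 0 in the other libraries, and FECH 2 in MT 2 and 0 in the others. UROS had peaks in both genotypes, with 3 and 1 in WT against 2 and 2 in MT. ALAS1, UROD and TMEM14C had 0 in every library, and a list without a peak says only that none was called there. The splice events were measured in HEK293T and the peaks in Nalm-6, so they cannot be compared within a cell.

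**Figure D4:**
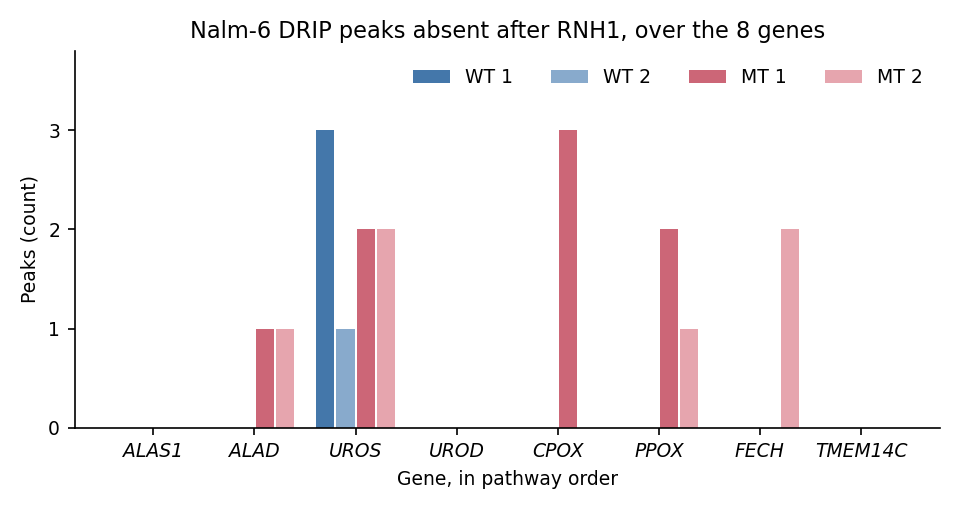
Bona fide DRIP peaks (counts) over each of the 8 genes and 3 kb before its start in the 2 WT and 2 MT Nalm-6 libraries. UROS has peaks in all 4 libraries, ALAD and PPOX in both MT libraries, CPOX and FECH in 1 MT library each, and ALAS1, UROD and TMEM14C in none.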

How the data were processed

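The members and the gene lists were chosen with earlier results of these data known. According to the study's methods, splice events were scored with the rMATS model, and the labels name STAR, StringTie and GRCh38 (hg38). Versions are not given in the sources used here. The authors' inclusion level is a fraction per event and library. The authors also deposited mean junction reads of each group, a signal that is not normalized, in which the MT mean covers all 6 listed values and enters the read minimum and the variance trend. Columns with the authors' own differences and p-values were deposited too and were not used. The table has no library totals.

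Inclusion levels were transformed to the arcsine of their square root and compared by limma 3.58.1 (R 4.3.3), with a variance trend on mean reads and Benjamini-Hochberg adjustment over all 83581 events tested. The fit was also run on simulated levels, with changes placed at middle levels and the spread between libraries shuffled across events. There it called 0.6% of changes of 0.1, 47.4% of 0.2, 61.4% of 0.3 and 77% of 0.5. Levels near 0 or 1 and events with few reads were not simulated as such. A further 6 columns list values per library in 1 cell and were not used here, since the listed MT values are not tied to the labelled samples. Tests on junction reads taken from these lists had been run before that decision, after the PPOX levels had been seen, and are left out.

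The events named were, for each member, the 3 with the smallest unadjusted p and the one with the most reads, and, of the other genes, the 5 events with the smallest p. The alternative 3′ and 5′ splice site events and the downstream PPOX intron were added after their values had been seen, except where that rule also names them.

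For DRIP-seq, the authors aligned with BWA, called narrow peaks per library with MACS2 and deposited fold enrichment, a ratio over the local background, and −log10 p and q values. Fold enrichment served for 1 alternative, and the −log10 values were not used further. Genes and sites came from GENCODE on the same build, and primers from the study's primer list. A gene planned for the wider list and some splice site sequences are not reported here.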

Additional observations from a re-analysis of the deposited data

How the results depend on the processing

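For the 8 genes and for the other heme and iron genes, the number of called events was 0 in the planned test and in every alternative run, and none of the 31 events named by rule was called in any of them. Over all events the 26 calls fell to 0 on the logit scale, to 0 with untransformed levels, to 0 without the variance trend, and to between 3 and 13 when a library was left out, so a count of 0 in the 8 genes has little weight. The cause was not tested. Among events named by rule, the difference turned sign when single libraries were left out in 3: PPOX retention against the downstream site (from -0.0102 without WT 1 to 0.111), UROD at chr1:45014940-45015006 (from -0.0065 to 0.0042, positive without WT 1, WT 2 or MT 2) and UROS at chr10:125815034-125815130 (from -0.0088 to 0.0022, positive without WT 3 or MT 3). The difference in DRIP peaks over the 8 genes, 5.0, was 1.5 at a fold enrichment of at least 4 and 9.5 with all untreated peaks. No paired analysis was possible because the MT columns carry no number that ties them to a sample, and the DRIP libraries of both genotypes share only a replicate number and were compared by an exact test on totals without a fitted model.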
